A study of Mus musculus with 24 samples.

Results

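Muscle of α7 integrin transgenic mice was compared with muscle of wild-type mice when both had run downhill. The comparison uses the 6 transgenic and 6 wild-type exercised arrays among the 24 Illumina mouse bead arrays of the series, chosen by the genotype and treatment in their titles. Each array held RNA of the gastrocnemius-soleus complex, the calf muscle group, of 1 female mouse aged 5 weeks. The transgenic mice (TG) overexpress the α7BX2 form of integrin α7, and the wild-type mice (WT) are labelled only as such. Both groups ran on a treadmill sloping down by 20 degrees for 40 min at 17 m/min, after the speed had been raised from 10 m/min over 2 min, and muscle was taken 3 h later. The other 12 arrays came from 6 wild-type and 6 transgenic mice that did not run, and they show the same genotype comparison at rest in different mice. The labels name neither the promoter of the transgene nor the genetic background of the mice, and do not say whether the genotypes were littermates.

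Integrin α7 pairs with integrin β1 to form the main laminin receptor of the skeletal muscle fibre. The pair sits at the fibre membrane and at the junctions with tendon and nerve, where it ties the extracellular laminin network to the cytoskeleton inside the fibre and passes on signals of strain. A second laminin receptor, the dystrophin-glycoprotein complex, works beside it. Downhill running lengthens the calf muscles while they contract, and this eccentric work strains the fibre membrane.

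Signals are given as log2 normalised intensity, and a difference is transgenic minus wild type on that scale, so that a difference of 1 is a doubling. A gene was called when its limma adjusted p, by the Benjamini-Hochberg method over 14984 genes, was under 0.05. Here a gene is a probe chosen for a symbol, or a probe without a single symbol. Across the exercised arrays the median signal lay between 105.2 and 135.8, with 40.2% to 46.1% of probes detected. The correlation between pairs of exercised arrays ranged from 0.917 to 0.99. The labelled tissue matched its markers: 14 of 15 defining genes of skeletal muscle were measured, and the mean of that list was 14.7 in both groups. Lymphocyte genes did not stand level. The mean of the 15 measured lymphocyte markers, of 22 listed, ranged from 5.69 to 9.63 in wild type, with 2 of 6 arrays high, and from 5.69 to 9.92 in transgenic muscle, with 4 of 6 high. High means above the widest gap in that mean over the 24 arrays.

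After the run 13 of 14984 genes differed between the genotypes, which is 0.0868% of the genes tested. Of these, 8 were higher in transgenic muscle (0.0534%) and 5 were lower (0.0334%). Of the 9 with a known chromosome, 4 lay on chromosome 7 and all of those were lower, while 3 on chromosome 8 and 2 on chromosome 14 were higher. D130040H23Rik, among the 3 on chromosome 8, was tested only because transgenic arrays detected it. The signals of the 6 transgenic and 6 wild-type arrays did not overlap for 12 of the 13, against 33 genes (0.22%) over the whole array. All 13 differed in the same direction in mice at rest. The count of calls rested on individual arrays. It was 7 without wild-type replicate 1, 6 without wild-type replicate 2, 6 without wild-type replicate 3, 6 without transgenic replicate 3 and 7 without transgenic replicate 8. Ctu1, Hps5, Kcna7, Ang and the probes ILMN_1219510 and ILMN_1217889 were called with each of the 12 exercised arrays left out in turn. Among the lymphocyte-low arrays alone 2 genes were called and among the lymphocyte-high arrays 3, with fewer arrays, and all 13 genes kept their direction in both. For the 12 genes without overlap, a part of the same arrays is no check of direction.

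**Figure D1:**
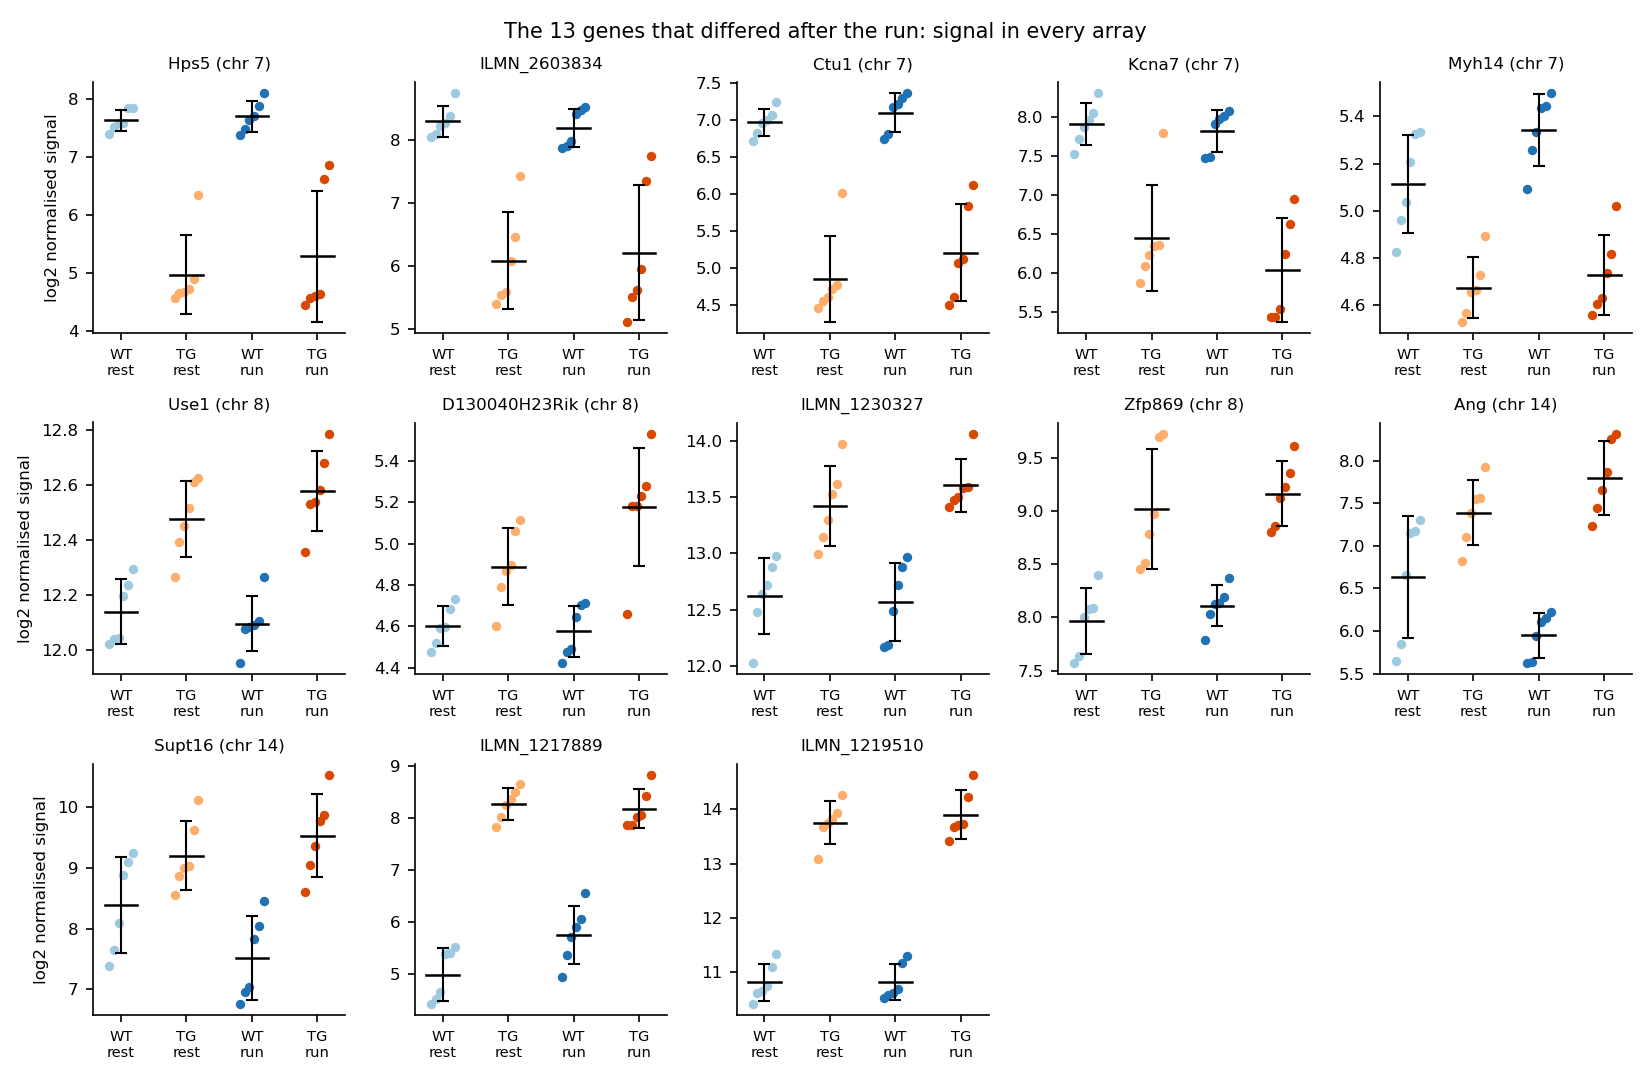
Log2 normalised signal of the 13 genes called after the run, 1 panel a gene, in the order of their difference. Points are single arrays of WT and TG mice at rest and after the run (n = 6 each), wide bars are means and error bars are SDs. For 12 of the 13, D130040H23Rik being the exception, the TG points after the run lie wholly on 1 side of the WT points.

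Hps5 encodes a subunit of the complex that sorts cargo to melanosomes, platelet granules and other lysosome-related organelles. Its signal had a lowest, median and highest value of 7.39, 7.68 and 8.11 in wild type, and of 4.46, 4.62 and 6.86 in transgenic muscle. The groups did not overlap, and the probe was detected on all 6 wild-type arrays and on 2 of 6 transgenic arrays. The difference was -2.41 (SE 0.37, n = 6 and 6, limma adjusted p = 0.0033). No fold is given, since 4 of the transgenic arrays did not detect the probe. At rest it was -2.66 (limma adjusted p = 0.000895). A dimmer probe of Hps5 went the other way, at 6.10 ± 0.37 (SD, n = 6) in wild type and 6.55 ± 0.37 in transgenic muscle, a difference of 0.46 (SE 0.18, limma adjusted p = 0.9999 over all probes). That probe was also higher in transgenic muscle at rest, by 0.89 (SE 0.18, limma adjusted p = 0.0519 over all probes). The lower signal is therefore a measurement of 1 probe, and the 2 probes of the gene disagree.

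Ctu1 encodes the catalytic subunit of the enzyme that adds sulphur to the wobble uridine of several transfer RNAs. It read 6.75, 7.19 and 7.36 (lowest, median, highest) in wild type and 4.50, 5.10 and 6.12 in transgenic muscle. Every transgenic array was below every wild-type array, and 3 of the 6 transgenic arrays detected the probe. The difference was -1.89 (SE 0.26, limma adjusted p = 0.000839), and at rest, with detection on 1 of 6 transgenic arrays, it was -2.11 (limma adjusted p = 0.00013). As for Hps5, no fold is given, since part of the transgenic arrays did not detect the probe.

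Kcna7 encodes Kv1.7, a voltage-gated potassium channel of the Shaker family found in skeletal muscle and heart. Its signals were 7.48, 7.95 and 8.08 in wild type and 5.44, 5.90 and 6.95 in transgenic muscle, again without overlap and with detection on every array. The difference was -1.78 (SE 0.28, limma adjusted p = 0.00469), 3.44-fold lower, and at rest -1.46 (limma adjusted p = 0.0461).

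Myh14, the heavy chain of non-muscle myosin IIC, was lower by a smaller step and near the limit of detection. It read 5.09, 5.38 and 5.50 in wild type and 4.56, 4.68 and 5.02 in transgenic muscle. The groups were separate, with detection on 5 wild-type arrays and 1 transgenic array. The difference was -0.62 (SE 0.11, limma adjusted p = 0.0138), and it lost its call in 3 of the 12 fits that left out 1 array, with an adjusted p of at most 0.0633.

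A probe without a gene symbol in the platform annotation, ILMN_2603834, was also lower. It read 7.87, 8.19 and 8.52 in wild type and 5.12, 5.79 and 7.74 in transgenic muscle, with no overlap. The difference was -1.97 (SE 0.37, limma adjusted p = 0.0322). This call held in 2 of the 12 fits that left out 1 array, with an adjusted p of up to 0.124. Another unnamed probe, ILMN_2603837, called at rest at -2.39 (limma adjusted p = 0.0229), differed by -2.02 after the run (SE 0.43, limma adjusted p = 0.0849).

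The low group was not even. For Hps5, transgenic replicates 1 and 11 read 6.62 and 6.86, while the other 4 transgenic arrays lay between 4.46 and 4.64. The same 2 arrays were the brightest transgenic arrays for Ctu1 (5.84 and 6.12), for Kcna7 (6.95 and 6.63) and for ILMN_2603834 (7.74 and 7.34). In the mice at rest, 1 transgenic array stood out in the same way. Transgenic replicate 8 at rest read 6.34 for Hps5, 6.02 for Ctu1, 7.80 for Kcna7 and 7.43 for ILMN_2603834, the highest of its group for each. Among the exercised transgenic arrays the lymphocyte mean was 9.20 in replicate 1, 8.86 in replicate 3, 5.69 in replicate 4, 5.88 in replicate 5, 9.92 in replicate 8 and 7.52 in replicate 11. Its part in these differences within the group was not tested.

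The start regions of the strongest named genes are shown because they are what a reader would search for shared regulatory letters. These 5 genes were picked with their values known. The sequences are from RefSeq on GRCm38.p6, from 250 bases before to 50 bases after the annotated start, each gene having 1 start in the table, and are written 5′ to 3′ in the direction of the gene. Capitals mark matches, on either strand, to CAGCTG (the E-box form read by myogenic factors), CCAAT (the box read by NF-Y) and GGGCGG (the GC box read by Sp1).
Ctu1 (chr7:43671781-43672080, plus strand): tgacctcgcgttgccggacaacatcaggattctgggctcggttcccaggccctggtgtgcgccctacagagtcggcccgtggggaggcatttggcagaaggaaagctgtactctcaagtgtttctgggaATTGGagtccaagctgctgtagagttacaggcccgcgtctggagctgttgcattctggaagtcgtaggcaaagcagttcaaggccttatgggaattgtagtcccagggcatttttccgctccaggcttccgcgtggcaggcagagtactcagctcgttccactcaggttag
Kcna7 (chr7:45405710-45406009, plus strand): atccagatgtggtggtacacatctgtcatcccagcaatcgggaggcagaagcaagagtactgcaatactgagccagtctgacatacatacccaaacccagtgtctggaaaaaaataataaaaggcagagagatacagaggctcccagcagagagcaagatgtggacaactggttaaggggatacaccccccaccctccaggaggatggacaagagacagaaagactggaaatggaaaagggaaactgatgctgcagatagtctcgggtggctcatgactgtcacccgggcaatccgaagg
Hps5 (chr7:46795832-46796131, minus strand): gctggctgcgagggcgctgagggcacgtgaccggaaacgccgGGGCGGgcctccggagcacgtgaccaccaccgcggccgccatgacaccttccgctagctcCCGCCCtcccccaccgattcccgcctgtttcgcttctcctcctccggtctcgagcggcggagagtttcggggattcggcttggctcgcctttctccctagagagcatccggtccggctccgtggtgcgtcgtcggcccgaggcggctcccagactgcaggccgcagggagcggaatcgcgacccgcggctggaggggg

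The Kcna7 window held none of the 3 motifs, Ctu1 held 1 CCAAT and Hps5 held 2 GGGCGG. Among 27025 mouse promoters of the same length, 37.9% held CCAAT, 35.9% held GGGCGG and 16.1% held CAGCTG. GC content was 56.7% for Ctu1, 50.3% for Kcna7 and 71.7% for Hps5, beside a median of 52.7%. The lower genes thus had no motif of the 3 in common. These are matches of letters only and describe no binding.

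Among the genes higher in transgenic muscle, Ang and Supt16 lie near each other on chromosome 14. Ang encodes angiogenin, a secreted ribonuclease of the pancreatic ribonuclease family that acts on blood vessel growth and cleaves transfer RNA under stress. It read 5.63, 6.02 and 6.22 in wild type and 7.23, 7.76 and 8.32 in transgenic muscle. The groups lay a full log2 unit apart at their nearest points. The difference was 1.85 (SE 0.27, limma adjusted p = 0.00156), 3.6-fold higher, and 0.76 at rest (SE 0.27, limma adjusted p = 0.999). The change in that difference from rest to after the run was 1.09 (SE 0.37), which did not pass over all genes (unadjusted p = 0.00795, limma adjusted p = 0.926). A dimmer Ang probe, detected on 5 of the exercised arrays, differed by 0.37 (SE 0.15). Ang belongs to a family of similar ribonuclease genes, and whether related transcripts bind the probe was not tested.

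Supt16 encodes the large subunit of FACT, a histone chaperone that opens and rebuilds nucleosomes as RNA polymerase passes. It read 6.76, 7.44 and 8.46 in wild type and 8.61, 9.57 and 10.53 in transgenic muscle. The groups were separate, though by little between the highest wild-type and the lowest transgenic array. The difference was 2.02 (SE 0.37, limma adjusted p = 0.0262), 4.05-fold higher, and 0.80 at rest (SE 0.37, limma adjusted p = 0.999). A second Supt16 probe, detected on every array, showed no such step, at 7.07 ± 0.23 in wild type and 7.09 ± 0.43 in transgenic muscle. Its difference was 0.021 (SE 0.19), so the 2 probes of the gene disagree. The call held in 6 of the 12 fits that left out 1 array, with an adjusted p of up to 0.104.

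The start regions of both genes are given in the same form as those above.
Ang (chr14:51090827-51091126, plus strand): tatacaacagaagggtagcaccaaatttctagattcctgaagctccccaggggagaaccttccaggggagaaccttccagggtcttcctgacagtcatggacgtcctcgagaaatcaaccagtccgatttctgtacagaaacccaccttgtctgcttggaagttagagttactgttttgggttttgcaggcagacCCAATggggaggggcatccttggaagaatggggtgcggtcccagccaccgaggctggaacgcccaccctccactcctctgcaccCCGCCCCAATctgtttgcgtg
Supt16 (chr14:52197190-52197489, minus strand): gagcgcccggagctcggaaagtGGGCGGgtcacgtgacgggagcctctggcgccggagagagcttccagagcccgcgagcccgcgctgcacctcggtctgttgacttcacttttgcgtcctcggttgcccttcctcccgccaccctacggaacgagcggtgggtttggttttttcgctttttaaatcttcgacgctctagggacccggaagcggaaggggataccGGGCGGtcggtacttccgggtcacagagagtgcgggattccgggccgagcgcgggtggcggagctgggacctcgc

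Ang held 2 CCAAT and 1 GGGCGG, the last CCAAT sharing letters with the GC box, and Supt16 held 2 GGGCGG. Their GC contents were 54.7% and 65.7%. CAGCTG was in none of the 5 windows (0 of 5).

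The called genes of chromosome 8 were brighter in the transgenic arrays by smaller steps. Use1, a SNARE protein that guides vesicles from the Golgi back to the endoplasmic reticulum, read 11.96, 12.09 and 12.27 in wild type and 12.36, 12.56 and 12.79 in transgenic muscle. The groups did not overlap. The difference was 0.48 (SE 0.088, limma adjusted p = 0.0235), 1.4-fold higher, and 0.34 at rest. Its dimmer probe differed by 0.39 (SE 0.23). The call held in 4 of the 12 fits that left out 1 array.

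Zfp869, a zinc finger protein, read 7.79, 8.13 and 8.37 in wild type and 8.81, 9.17 and 9.61 in transgenic muscle, with no overlap. The difference was 1.05 (SE 0.21, limma adjusted p = 0.0409), 2.08-fold higher, and 1.06 at rest (limma adjusted p = 0.0467). It was one of the genes called in both states. Its other 2 probes, both detected on all arrays, differed by 0.042 (SE 0.17) and 0.10 (SE 0.17), so here too the probes disagree. The gene stands beside related zinc finger genes in gene order, and whether their transcripts bind the probe was not tested. The call held in 2 of the 12 fits that left out 1 array, with an adjusted p of up to 0.18.

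D130040H23Rik, which falls outside the naming rule and was named after its values were seen, was not detected on any of the 6 wild-type exercised arrays and was detected on 5 of 6 transgenic arrays. Its measured means were 4.58 and 5.18 (difference 0.60, SE 0.12, limma adjusted p = 0.036). Wild type gave only a bound, and the transgenic mean lay 1.04-fold (0.051 log2) above it, a step smaller than the SE. A single transgenic array, replicate 4, read 4.66 and fell within the wild-type range, and the call held in 1 of the 12 fits that left out 1 array.

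The higher genes also included 3 probes without a gene symbol. ILMN_1219510 read 10.53, 10.65 and 11.29 in wild type and 13.42, 13.72 and 14.63 in transgenic muscle. No array came near the other group. The difference was 3.09 (SE 0.21, limma adjusted p = 6.29e-09), 8.51-fold higher, and at rest it was 2.95 (limma adjusted p = 1.66e-08).

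ILMN_1217889 read 4.95, 5.81 and 6.55 in wild type and 7.86, 8.04 and 8.82 in transgenic muscle, with detection on 5 wild-type and all 6 transgenic arrays. The difference was 2.42 (SE 0.25, limma adjusted p = 8.56e-06), and 3.28 at rest (limma adjusted p = 2.13e-08). A further unnamed probe, ILMN_1230327, named although it falls outside the naming rule, read 12.17, 12.61 and 12.97 in wild type and 13.42, 13.54 and 14.06 in transgenic muscle. Its difference was 1.03 (SE 0.18, limma adjusted p = 0.0159), again with no overlap. The call held in 7 of the 12 fits that left out 1 array, with an adjusted p of up to 0.066. What these probes measure is not annotated in the table used here, and no gene is named for them.

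Further genes with the smallest p in each direction missed the threshold. Among those higher in transgenic muscle were Nosip, a ubiquitin ligase that binds nitric oxide synthase, and Bcat2, the mitochondrial enzyme that starts the breakdown of branched-chain amino acids, both on chromosome 7. Nosip differed by 1.00 (SE 0.20, limma adjusted p = 0.068) with ranges of 8.01 to 9.01 and 8.98 to 9.95, which touch. Its 3 probes gave between 0.89 and 1.01, and 1 of them was called when every probe was tested as itself (limma adjusted p = 0.0476). Bcat2 differed by 0.83 (limma adjusted p = 0.0849) without overlap. Both genes were called in the mice at rest, Nosip at 1.39 and Bcat2 at 1.12.

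Plek, pleckstrin, a protein of platelets and white blood cells on chromosome 11, differed by 1.80 (SE 0.39, limma adjusted p = 0.0955), with means of 5.22 ± 0.65 in wild type and 7.02 ± 0.86 in transgenic muscle. It was detected on 3 wild-type and 6 transgenic exercised arrays, and at rest it differed by 1.52. After the run, Plek read 7.23, 7.29, 8.25 and 7.23 on the lymphocyte-high transgenic replicates 1, 3, 8 and 11. On the low transgenic replicates 4 and 5 it read 6.38 and 5.75. In wild type it read 4.48 and 4.83 on the high replicates 6 and 9. On the low wild-type replicates 1, 2, 3 and 5 it read 5.83, 4.73, 5.33 and 6.12. With the array means of the lymphocyte and slow fibre lists as covariates, the Plek difference was 1.7 (limma adjusted p = 0.083) and was not called. Beyond that fit and the split of arrays given below, the part of lymphocyte content in the Plek difference was not tested. With array weights 3072 genes over the whole array had an unadjusted p under 0.05, against 466 without weights. Plek was called in that fit at 1.79 (limma adjusted p = 0.0277). In the unweighted fit without transgenic replicate 5 it was called at 2.06 (limma adjusted p = 0.0278). Among the lymphocyte-low arrays (4 wild-type and 2 transgenic) the difference was 0.56 (limma adjusted p = 0.971), and among the lymphocyte-high arrays (2 and 4) it was 2.84 (limma adjusted p = 0.0338), the second split being added after the data were seen. In whole muscle, fewer cells of a type and less RNA per cell cannot be told apart.

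The other genes named as higher were Zfp930 on chromosome 8 at 1.12 (limma adjusted p = 0.0849, but 0.0149 with array weights), Ush1c, the scaffold protein harmonin, on chromosome 7 at 1.29 (limma adjusted p = 0.273), and Zfp93 on chromosome 7 at 1.11 (limma adjusted p = 0.304). Ush1c was detected on 3 wild-type and 6 transgenic exercised arrays, and Zfp93 on 1 and 5. On the lower side, Ocel1 on chromosome 8 differed by -1.36 (limma adjusted p = 0.0849, but 0.0267 with array weights) and Mef2b, a transcription factor of the MEF2 family, by -0.67 (limma adjusted p = 0.227). A second Mef2b probe differed by -0.034. Zfp868 on chromosome 8 differed by -0.71 and Zfp30 on chromosome 7 by -0.96, with limma adjusted p of 0.339 and 0.473. Shc4, an adaptor of receptor tyrosine kinases on chromosome 2, differed by -0.72 (limma adjusted p = 0.3, but 0.0265 with array weights) and Fam160b2 on chromosome 14 by -0.37 (limma adjusted p = 0.473). Shc4 was detected on 6 wild-type and 3 transgenic exercised arrays. Of the 12 named genes that missed the threshold, 10 lay on chromosomes 7, 8 and 14.

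Chromosomes 7, 8 and 14 held 891, 611 and 407 of the tested genes, or 5.95%, 4.08% and 2.72%. An unadjusted p under 0.05 was found for 466 genes on the whole array (3.11%), 204 higher (1.36%) and 262 lower (1.75%), and for 6.62% of the genes of chromosome 7, 5.4% of chromosome 8 and 9.09% of chromosome 14. Of the 50 genes with the smallest p, 16 lay on chromosome 7, 11 on chromosome 8 and 7 on chromosome 14. Another 8 had no chromosome in the annotation. On the other chromosomes limma called none (0) of 9648 genes, while 235 passed an unadjusted 0.05.

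The called genes of chromosomes 7, 8 and 14 were set in gene order. From Ctu1 to Hps5 on chromosome 7 stood 81 tested genes, of which 18 (22.2%) had an unadjusted p under 0.05, against 5.06% on the remainder of the chromosome. Among these 18, 9 were higher and 9 lower in transgenic muscle, and all 18 had the same sign at rest. From D130040H23Rik to Use1 on chromosome 8 it was 14 of 44 (31.8%, against 3.35%), with 7 higher and 7 lower, and 13 of the 14 had the same sign at rest. The exception was Upf1, a factor of messenger RNA decay, at 0.26 after the run and -0.09 at rest. From Ang to Supt16 on chromosome 14 it was 5 of 11 (45.5%, against 8.08%), with 3 higher and 2 lower, all 5 with the same sign at rest. These counts include the called genes at both ends. Without those ends they were 16 of 79 (20.3%), 12 of 42 (28.6%) and 3 of 9 (33.3%). The limits were set by called genes, so the shares describe the stretches and carry no test. D130040H23Rik, the first limit on chromosome 8, was itself tested only because transgenic arrays detected it.

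Neighbours inside a stretch went opposite ways. On chromosome 7 Myod1, the master regulator of the myogenic lineage, differed by -0.77 (unadjusted p = 0.0172), while Ush1c, the tested gene just before it in order, stood at 1.29. Emp3, a membrane protein named after its value was seen, stood at 0.60. On chromosome 8 Comp, a matrix protein of cartilage and tendon, differed by -0.67 (unadjusted p = 0.0021), while Pgpep1, a peptidase, stood at 0.42 and Haus8, a spindle protein, at 0.56. On chromosome 14 Rnase4, a ribonuclease gene next to Ang in order, stood at -0.49 beside the higher Ang. Ndrg2, a muscle-expressed member of the NDRG family, stood at 0.51. None of these neighbours was called. Pgpep1, Haus8, Rnase4 and Ndrg2 were likewise chosen with their values known.

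**Figure D2:**
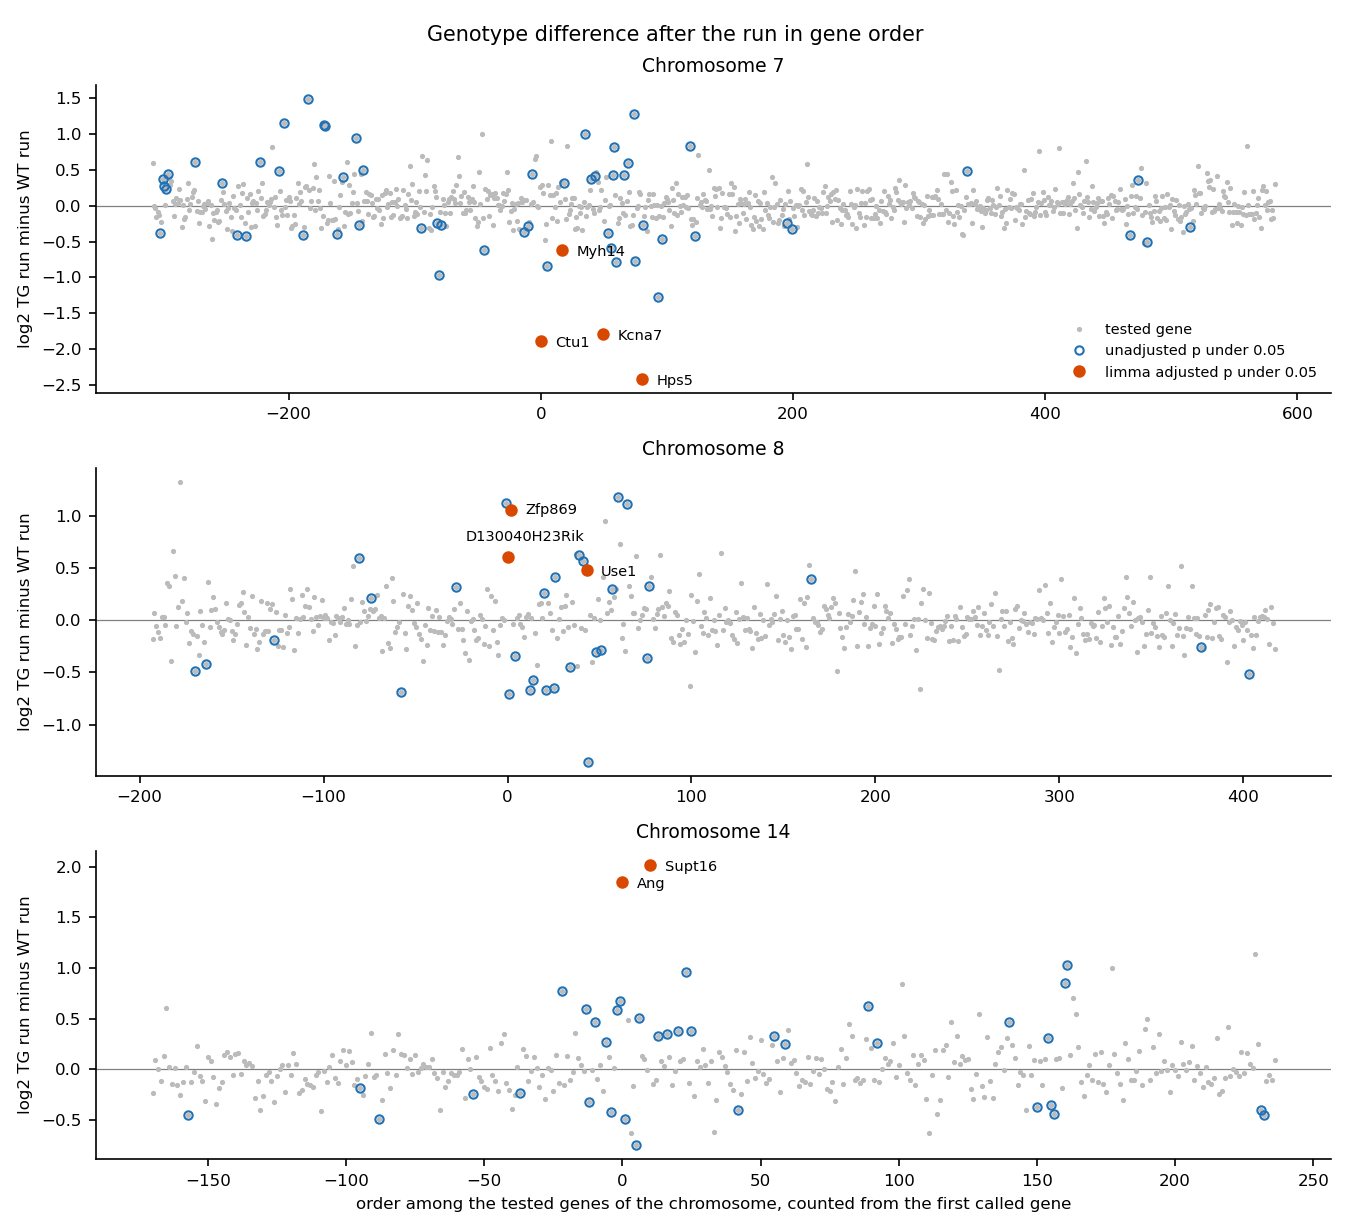
Log2 difference (TG run minus WT run) of each tested gene on chromosomes 7, 8 and 14, set in gene order along the x axis and counted from the first called gene, which is at 0. Grey points are tested genes, open circles have an unadjusted p under 0.05 and filled orange points are called. Open circles lie above and below the zero line, with 18 of the 81 genes from Ctu1 to Hps5, both counted.

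The same genotype comparison in mice at rest used no array in common with this one. There 11 genes were called (0.0734%), 6 of them higher (0.04%) and 5 lower (0.0334%), and 7 of them were also called after the run, in the same direction. All 13 genes called after the run had an unadjusted p under 0.05 at rest, where 448 genes did (2.99%), and for 7 of them the groups did not overlap at rest either, beside 38 genes on the whole array (0.254%). Both comparisons came from 1 fit in which each gene has 1 spread estimated over all 24 arrays. The p at rest are therefore no separate check, while the differences come from separate mice. Called only at rest were Nosip, Bcat2, ILMN_2603837 and Wdr93. Wdr93, on chromosome 7, differed by 0.60 at rest and by -0.01 after the run (SE 0.12), but the difference between those values did not pass over all genes (unadjusted p = 0.0011, limma adjusted p = 0.926). Its probe was detected on 2 wild-type and 5 transgenic exercised arrays, and on 4 and 5 at rest.

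The test of whether the genotype difference itself changed with the run gave 0 calls by limma among 14984 genes, while an unadjusted p under 0.05 was found for 352 (2.35%). The lowest adjusted p was 0.926. Hdac9, a class IIa histone deacetylase that represses MEF2 factors in muscle, had means of 5.55 ± 0.25 in wild type and 5.04 ± 0.29 in transgenic muscle after the run, a difference of -0.50. At rest the means were 5.04 ± 0.12 and 5.47 ± 0.29, a difference of 0.43. The change between the states was -0.93 (SE 0.21, unadjusted p = 0.000163, limma adjusted p = 0.926). The Hdac9 probe was detected on 6 wild-type and 3 transgenic arrays after the run, and on 3 and 6 at rest. Its lower means therefore lie near the detection limit.

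The after-run differences were then set beside those at rest across genes. Among genes with an unadjusted p under 0.05 after the run, 104 of 129 on these chromosomes (80.6%) had the same sign at rest, against 130 of 235 (55.3%) on other chromosomes. Over all tested genes the share with the same sign was 42.3% and 38.4%. The correlation of the differences was 0.189 over 1909 genes of the 3 chromosomes and -0.308 over 9648 genes of the others. Genes on 1 array share its RNA and cells, so these values are descriptions and have no p. The lymphocyte list stood on opposite sides of 0 in the 2 states, with a median of 0.812 after the run and -0.589 at rest, as did the slow fibre list at -0.301 and 0.213. Their part in the negative correlation was not tested.

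**Figure D3:**
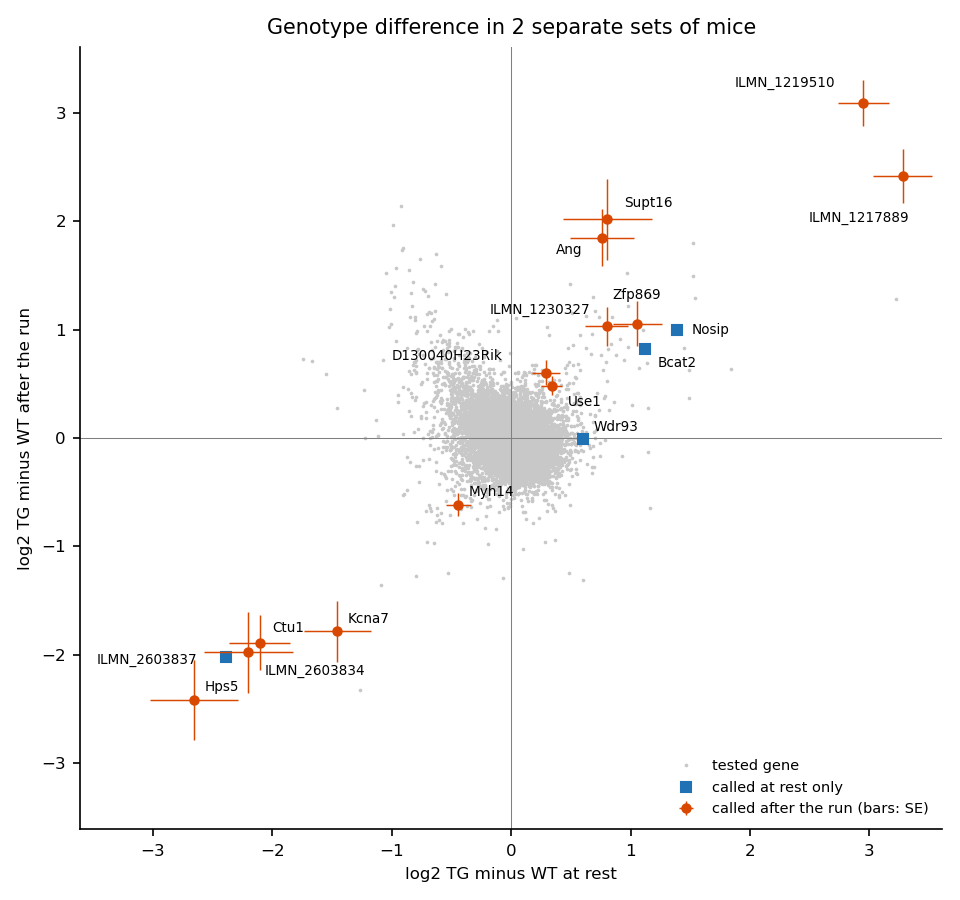
Log2 difference TG minus WT at rest (x axis) and after the run (y axis) for each of the 14984 genes, from 2 separate sets of mice. Orange points with SE bars were called after the run and blue squares only at rest. The 13 called genes lie in the upper right or lower left, while the grey cloud leans the other way (r = -0.17 over all genes).

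The transgene is an integrin α7 chain, so the probes of Itga7 and of its partner Itgb1 were read in every array. The brighter Itga7 probe had a lowest, median and highest signal of 7.90, 8.98 and 9.54 in wild type and of 8.09, 8.94 and 9.60 in transgenic muscle. The groups covered each other almost fully. The difference was -0.0032 (SE 0.31, exact permutation p = 0.994, two-sided), and a dimmer Itga7 probe gave -0.22 (SE 0.33, exact permutation p = 0.571). The Itgb1 probes differed by -0.030 (SE 0.20, exact permutation p = 0.881) and -0.14 (SE 0.16, exact permutation p = 0.268). Adjusted over the 4 probes each p was 0.994, and the smallest p that 6 against 6 arrays allow is 0.00216. For the brighter probe of each gene the sign of the difference changed with the processing. Each of the 4 probes was detected on all 24 arrays. The labels do not tell whether an Itga7 probe can bind RNA of the transgene, so the genotype labels stay unchecked by these values.

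**Figure D4:**
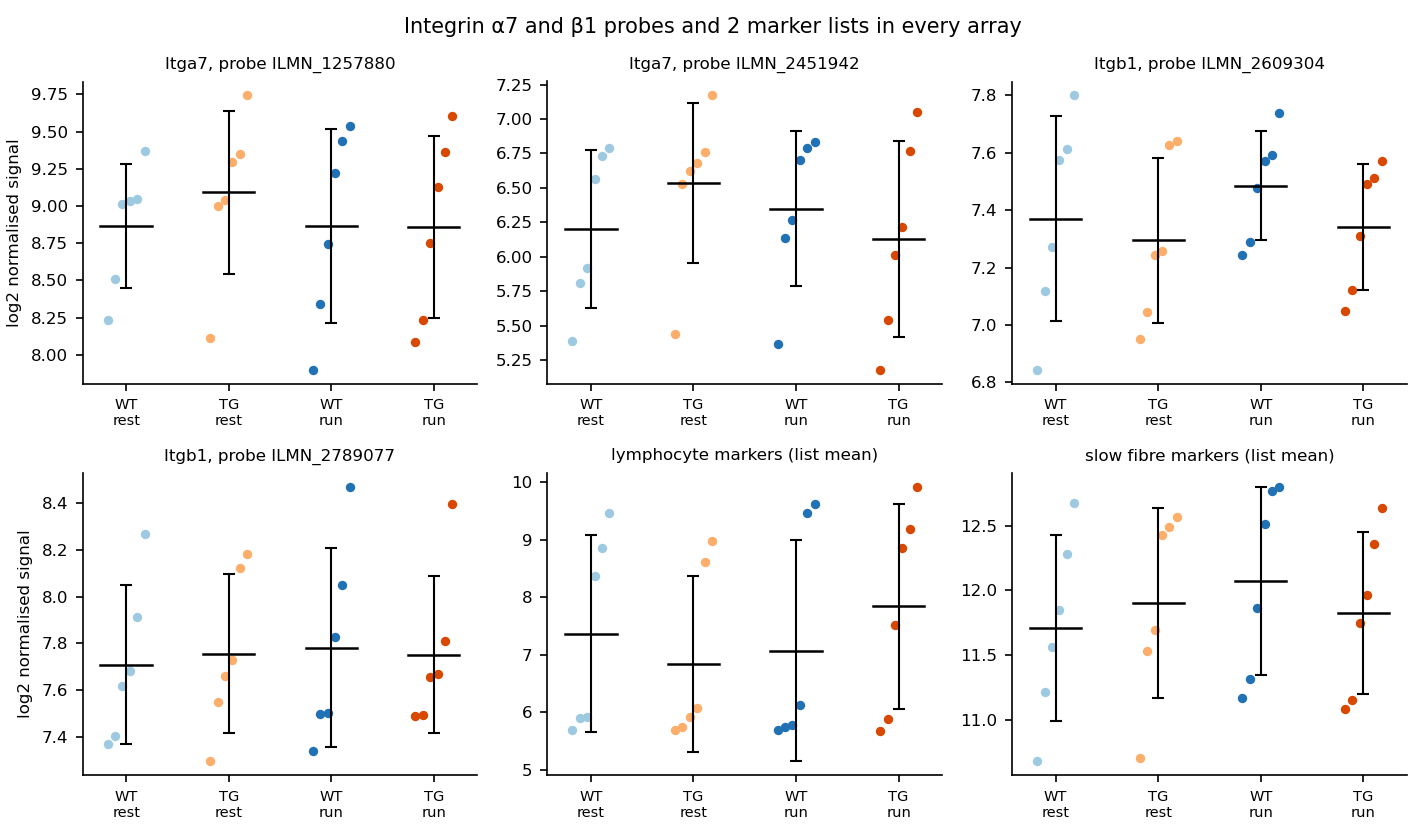
Log2 normalised signal of the 4 Itga7 and Itgb1 probes, and the mean of the lymphocyte and slow fibre marker lists, in each array of WT and TG mice at rest and after the run (n = 6 each). Points are arrays, wide bars are means and error bars are SDs. The signals of the genotypes overlap for each probe, and the lymphocyte mean splits into low and high arrays in every group, with 4 high TG and 2 high WT arrays after the run.

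Limma called 0 members in each of the 32 gene lists. At an unadjusted p under 0.05, 7 of the 471 measured memberships of the lists were higher (1.49%, beside 1.36% of all genes) and 6 were lower (1.27%, beside 1.75%). Among integrin chains, 8 of 18 measured members were above 0, with a median difference of -0.0039, beside -0.0069 for all genes and 48.4% of all genes above 0. Itga2b, the platelet integrin chain, stood at 0.37 (unadjusted p = 0.161) and Itga11, a collagen receptor chain, at -0.24 (unadjusted p = 0.186). The cytoplasmic partners of integrins had 11 of 20 members above 0 and a median of 0.0038. Ilk, integrin-linked kinase, stood at 0.13 and Cav3, caveolin of the muscle membrane, at -0.39. Over both lists the differences ranged from that of Cav3 to 0.80 for Itgb7, a chain of lymphocyte integrins.

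Laminins and basement membrane genes were above 0 in 11 of 15, with a median of 0.0972. Lama4, a laminin chain of vessels and nerve, stood at -0.43 (unadjusted p = 0.0329) and Col4a2, a collagen IV chain, at 0.22. Lama4 was detected on 4 wild-type and 2 transgenic exercised arrays. Collagens and interstitial matrix genes were above 0 in 18 of 24, with a median of 0.0612, and Mmp14, a membrane-bound matrix protease, stood at 0.37 (unadjusted p = 0.0365). The dystrophin-glycoprotein complex was above 0 in 2 of 12, with a median of -0.102. Sgcd, δ-sarcoglycan, stood at -0.34 (unadjusted p = 0.0932). Dmd, dystrophin, stood at -0.26 and was detected on 2 of 6 arrays in each exercised group.

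Genes of the unfolded protein response had the most members with an unadjusted p under 0.05. Of 17 measured, 12 were above 0, with a median of 0.0594, and 4 were higher at an unadjusted p under 0.05, while the whole array had 1.36% of genes so. Xbp1, the transcription factor that drives the response, had means of 12.03 ± 0.15 in wild type and 12.46 ± 0.12 in transgenic muscle. Its groups did not overlap, and the difference was 0.42 (SE 0.11, limma adjusted p = 0.473).

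Dnajb9, a co-chaperone of the endoplasmic reticulum, had means of 10.67 ± 0.21 and 11.32 ± 0.35, a difference of 0.65 (limma adjusted p = 0.473). Pdia6, a disulphide isomerase, stood at 0.53 and Sdf2l1, another endoplasmic reticulum chaperone partner, at 0.99 (limma adjusted p = 0.998 for both). The other 13 members ranged from Chac1, a glutathione-degrading enzyme, at -0.65 to Hspa5, the chaperone BiP, at 0.31. At rest the list median was 0.0282, with Dnajb9 at 0.45, Pdia6 at 0.36, Xbp1 at 0.17 and Sdf2l1 at -0.11.

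Of 25 measured heat shock proteins and chaperones, cytosolic and mitochondrial, 5 were above 0, with a median of -0.0986. Hsp90aa1, the inducible HSP90, stood at -0.47 (unadjusted p = 0.0551), Hsph1, an HSP110 partner of HSP70, at -0.41 and Chordc1, an HSP90 co-chaperone, at -0.26. Hspa1a and Hspa1b, the inducible HSP70 genes, stood at -0.98 (SE 0.62) and -0.64 (SE 0.51). Neither difference reaches 2 of its standard errors. At rest the list median was 0.0261.

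Exercise-responsive fuel genes were above 0 in 6 of 20, with a median of -0.154. Ppara, a regulator of fat oxidation, stood at -0.37 (unadjusted p = 0.0507), Esrrg, a nuclear receptor of oxidative muscle, at -0.45 and Vegfa, the vessel growth factor, at -0.27. Immediate early genes were above 0 in 10 of 21, with a median of -0.0115, and Fos stood at -0.78 (unadjusted p = 0.0541). Metallothioneins and glucocorticoid targets were above 0 in 10 of 18, with a median of 0.0362. Circadian clock genes were above 0 in 3 of 12, with a median of -0.113. Arntl, the clock activator BMAL1 on chromosome 7, stood at -0.40 and Bhlhe40, a clock repressor, at -0.30. At rest Arntl stood at -0.77 and Bhlhe40 at 0.31.

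Of the strain-sensing sarcomere genes 3 of 12 were above 0 (median -0.125), with Ankrd23 at -0.23. Of the neuromuscular junction genes 2 of 13 were above 0 (median -0.168), Hdac9 being the member with the smallest p. Atrophy ligases and FoxO factors were above 0 in 5 of 16 (median -0.0452), with Fbxo30, a ubiquitin ligase of muscle wasting, at -0.40 (unadjusted p = 0.0304) and Foxo3 at 0.27. Growth signalling genes were above 0 in 9 of 20 (median -0.0332), with Igfbp5, a binding protein of insulin-like growth factors, at -0.31 (unadjusted p = 0.0141) and Igfbp4 at 0.22. Growth arrest and p53 targets were above 0 in 4 of 13 (median -0.0335), with Ccng1 at -0.20. Oxidative defence genes were above 0 in 8 of 16, with a median of 0.0147.

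The medians of the immune lists were above 0, and 4 transgenic and 2 wild-type exercised arrays were lymphocyte-high. Lymphocyte markers were above 0 in 14 of 15, with a median of 0.812, and Cd79b, a B cell receptor chain, had means of 7.65 ± 3.16 and 9.20 ± 2.85. The spread within each group exceeds that difference of 1.55 (SE 1.55), and it was 0.17 among lymphocyte-low and -0.82 among lymphocyte-high arrays alone. Antigen presentation genes were above 0 in 15 of 15 (median 0.436), neutrophil markers in 10 of 12 (median 0.536), with Lcn2, a secreted iron carrier, at 0.87, and macrophage markers in 14 of 15 (median 0.191). Cytokines and chemokines were above 0 in 15 of 23 (median 0.0969) and interferon-stimulated genes in 13 of 14 (median 0.251), with Irgm1 at 0.22. At rest the lymphocyte, neutrophil and macrophage medians were -0.589, -0.597 and -0.366. Among lymphocyte-low arrays alone the medians after the run were -0.0561 for lymphocyte, -0.129 for neutrophil, 0.317 for macrophage and 0.186 for antigen presentation genes. Among lymphocyte-high arrays alone they were -0.797, -0.173, -0.241 and -0.515 in the same order. Cytokines stood at -0.0255 and -0.241, and interferon-stimulated genes at 0.157 and 0.0511, in the low and the high arrays.

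Other cell type lists were also spread. Slow fibre markers were above 0 in 1 of 13 (median -0.301), their mean standing at 12.07 ± 0.73 in wild type and 11.83 ± 0.63 in transgenic muscle. The exception was Smtnl2 at 0.21. Adipocyte markers were above 0 in 10 of 12 (median 0.213), endothelial markers in 10 of 12 (median 0.142) with Egfl7 at 0.36, and smooth muscle and pericyte markers in 7 of 8 (median 0.193). Satellite cell and myogenic factors were above 0 in 3 of 8 (median -0.125), with Myh8, a myosin of newborn muscle, at -0.78. Tendon markers were above 0 in 1 of 8 (median -0.141), Comp being the lowest. Erythroid markers were above 0 in 2 of 5 and Schwann cell markers in 3 of 5. The defining muscle genes were above 0 in 7 of 14 (median -0.0052), with Actn3, the α-actinin of fast fibres, at -0.23.

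**Figure D5:**
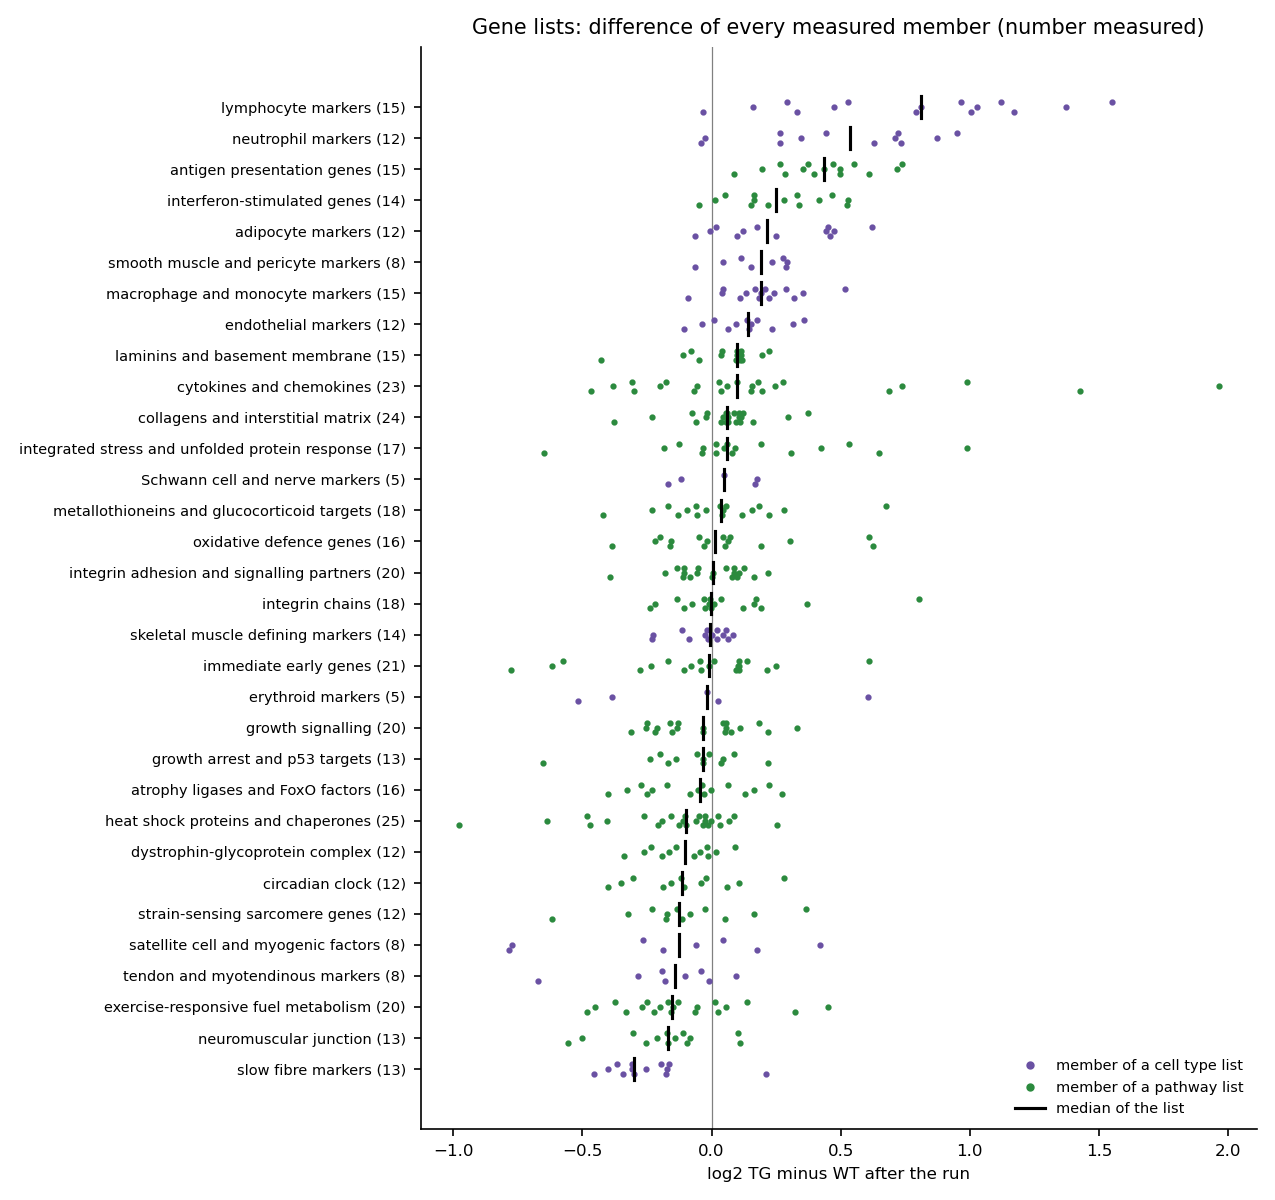
Log2 difference (TG minus WT after the run) of each measured member of the 32 gene lists, with the number measured in brackets, sorted by the list median (black bar). Purple points belong to cell type lists and green points to pathway lists. Lymphocyte markers lie farthest to the right (median 0.812) and slow fibre markers farthest to the left (median -0.301), and no member was called.

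With the array means of the lymphocyte and slow fibre lists added to the model as covariates, 29 of 14984 genes were called, 19 higher and 10 lower, and all 13 genes were among them. In this model 923 genes had an unadjusted p under 0.05, against 466 without covariates. Of the 29, 8 lay on chromosome 7, 8 on chromosome 8 and 2 on chromosome 14, while 8 had no chromosome. The added genes included Nosip at 1.11 (limma adjusted p = 5.3e-05), Ush1c at 1.45 (6.34e-05), Bcat2 at 0.89 (0.00217), Mef2b at -0.72 (0.0122) and Ocel1 at -1.35 (0.0246). On other chromosomes this model called 3: Dnajb9 at 0.66 (limma adjusted p = 0.0246), Mgat4a, a glycosyltransferase gene, at -0.66 (0.00589) and 3110040M04Rik at -1.08 (0.0174). With array weights, where 3072 genes had an unadjusted p under 0.05, the genes called on other chromosomes were Plek, Shc4 and 3110040M04Rik. The last stood at -1.76 (limma adjusted p = 0.0235). Mgat4a and 3110040M04Rik were named after their values were seen.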

How the data were processed

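One deposited table gives linear, non-normalised intensity values, 1 for each probe on each array, and pairs each with a detection p-value, per the file headers. Another deposited table gives log2 values. The submitters' processing notes list limma 3.20.8 under R 3.1.1. No label or header names the bead-reading software, a slide or a scan date. The deposited log2 values differed from those computed here by at most 0.0269.

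Intensities of all 24 arrays were background-corrected from the detection p-values, given an offset of 16, quantile-normalised and put on a log2 scale with limma 3.58.1 in R 4.3.3. Probes with a detection p under 0.05 on at least 6 arrays were kept (21788 of 45281). The platform annotation paired 34885 probes of the file with 1 symbol, 18 with several and 10378 with none. The brightest probe of a symbol stood for it, giving 14984 genes, 11574 with a symbol and 11557 with a chromosome from the RefSeq gene table of GRCm38.p6. The files name no build, so coordinates are given only for RefSeq promoters.

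A linear model with 4 group means (6 arrays each) was fitted with lmFit and eBayes, with 20 residual degrees of freedom, and was tested on simulated data. The simulated noise was independent between genes and arrays. It therefore lacked the lymphocyte and slow fibre spread that genes share here, and cannot show how the model behaves under it. Tests were two-sided. Itga7 and Itgb1 probes also had an exact permutation test of 6 against 6 arrays. The number of arrays limits the precision. Each array is labelled as a separate mouse, and 0 pairs of arrays were identical. Where every array of a group lacked detection the gene got only a bound: the brighter mean against, on each dim array, the larger of the probe's signal and the lowest signal of a detected probe.

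The genes named were the called genes with a symbol other than a clone or predicted name, filled to 10 a direction by the smallest p, up to 2 called probes without a symbol a direction, Itga7, Itgb1, and up to 4 members with the smallest p of each list. The members, the 32 lists and the rules were chosen with earlier results of these data known. The alternatives were another scaling, the deposited log2 table, another offset, other detection filters, every probe as itself, the 12 exercised arrays alone, a variance trend, array weights, a replicate block, marker means as covariates, arrays low or high in lymphocyte markers, and leaving out each exercised array. The lymphocyte-high split was added after the data were seen.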

Additional observations from a re-analysis of the deposited data

Results flagged for a closer look

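In 118 groups of 6 arrays the highest or lowest array was checked against its neighbour with Dixon's ratio of that gap to the group's range. Chance flags about 1 in 20 such groups, and 6 were past Dixon's 95% critical value. Zfp93 in wild type after the run had a ratio of 0.823, replicate 3 reading 5.25 with the next array at 4.68. The unnamed probe ILMN_1230327 in transgenic muscle after the run had a ratio of 0.735, replicate 8 reading 14.06 with the next array at 13.59. Ocel1 in transgenic muscle had a ratio of 0.638, replicate 4 reading 6.91 with the next at 5.83, and Itgb1 had 0.645, the same array reading 8.39 with the next at 7.81. The mean of the interferon-stimulated genes was lowest in that array too, at 8.32 with the next at 8.78 (ratio 0.627). The mean of the smooth muscle and pericyte markers was lowest in transgenic replicate 8, at 9.97 with the next at 10.23 (ratio 0.653).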

How the results depend on the processing

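No called gene changed direction in any of the 12 fits that left out 1 array or the 13 other alternatives in which it was tested. For 12 of the 13 the exercised groups did not overlap, so fits on part of the same arrays are no check of their direction. The counts of 8 higher and 5 lower genes moved more. The lower count was 3 with median scaling in place of quantile normalisation, which moved the median of all genes from -0.0069 to 0.0179. The higher count was 5 without a detection filter and 13 with every probe tested as itself. With only the 12 exercised arrays the counts were 4 and 2, and with array weights the counts were 11 and 8, with 12 of the 13 genes kept and 3 of the 19 on chromosomes other than 7, 8 and 14. The weights also gave 3072 genes with an unadjusted p under 0.05, against 466 without them, and a median of all genes of -0.039. With the 2 marker means as covariates the counts were 19 and 10, and 923 genes had an unadjusted p under 0.05. Among lymphocyte-low arrays they were 1 and 1, and among lymphocyte-high arrays 3 and 0, in both cases with fewer arrays. With 1 array left out the higher count ranged from 3 to 12 and the lower from 3 to 6. The total of 13 became 7 without wild-type replicate 1, 6 without replicate 2 or 3, and 9 without 6 or 9. It became 6 without transgenic replicate 3, 7 without 8 and 16 without 5. The cause of these shifts was not tested beyond the smaller number of arrays. The replicate numbers of the labels gave correlations of deviations of -0.596, 0.27 and 0.615 for the 3 numbers shared by exercised arrays. Other pairs lay between -0.817 and 0.807, so these 3 values show no pairing of the arrays but cannot exclude one. With the replicate block the counts were 2 and 0, and both called genes were among the 13. Small differences without a call changed sign. Itga7 ranged from -0.196 to 0.151 with 1 array left out and was 0.00386 with median scaling, 0.206 with covariates, 0.13 in lymphocyte-low and 0.487 in lymphocyte-high arrays. Itgb1 ranged from -0.159 to 0.108 and was 0.021, 0.071, 0.0686 and 0.192 in the same settings, and 0.135 with the block. Wdr93 ranged from -0.04 to 0.0565 and was 0.0103 with median scaling, 0.0106 with array weights and 0.0731 with the block. In lymphocyte-low arrays Itga11 was 0.288 and Arntl 0.0316. In lymphocyte-high arrays Fos was 0.566, Cav3 0.408, Dmd 0.054, Actn3 0.00532 and Cd79b -0.817. Probes near the detection limit, such as Myh14 and D130040H23Rik, understate differences. Probes of the same gene disagreed for Hps5, Supt16 and Zfp869, and for Mef2b, which was not called. The Ang probes had the same sign but differed in size, at 1.85 and 0.37.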

Other observations

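Several genes with no overlap between the 6 transgenic and 6 wild-type exercised arrays missed the threshold, and they are given as values with no test of their own. They were chosen after their values were seen, from the 33 such genes (0.22% of those tested). Mocs3, an enzyme of sulphur transfer that feeds the transfer RNA thiolation in which Ctu1 acts, stood at 0.34 on chromosome 2 (limma adjusted p = 0.766) and at 0.14 at rest. Mettl3, the catalytic subunit of the messenger RNA N6-methyladenosine writer, stood at 0.33 on chromosome 14 (limma adjusted p = 0.998). Taf8, a subunit of the general transcription factor TFIID, stood at 0.37 on chromosome 17 (limma adjusted p = 0.87). Mipep, a mitochondrial protease that trims imported proteins, stood at 0.62 on chromosome 14 and at 0.77 at rest. Pisd-ps1, a pseudogene on chromosome 11, stood at -1.25 (limma adjusted p = 0.855) and at -0.53 at rest. Of the 33, 17 lay on chromosomes 7, 8 and 14, and 9 on other chromosomes. The 8 genes separated the same way in both exercise states (0.0534%) lay on chromosome 7 (3), on chromosome 8 (1) or had no chromosome (4).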
